A study of Mus musculus with 18 samples.

Results

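The genes described are 10 genes of the metallothionein, glutathione and NRF2 systems, chosen by name: the metallothioneins Mt1 and Mt2, the glutathione genes Gclc, Gclm and Gsr, the cystine carrier Slc7a11, and the antioxidant genes Hmox1, Nqo1, Txnrd1 and Srxn1. All 10 were among the 14620 genes of the mRNA sequencing table and the 13719 genes of the RNAome long RNA table, each represented by its RefSeq protein-coding entry with the highest mean level, and all 10 passed the filter on low counts in both. The libraries came from C57BL/6 mouse embryonic stem (ES) cells deficient in HPRT, an enzyme of purine salvage, and the control cells carry that deficiency too. Cells were grown on feeder cells, then for 1 passage on gelatin. The cisplatin group received the DNA-crosslinking platinum compound cisplatin at 2.5 µM, and the control group received the solvent DMSO. For how long is not given in the sources used. The same 6 RNA samples were read by mRNA sequencing, which selects poly(A) RNA, and by RNAome sequencing, which reads rRNA-depleted, fragmented total RNA, giving 3 cisplatin libraries (8.3.3, 8.4.3 and 8.5.3, the codes of their RNA samples) and 3 control libraries (8.4.16, 8.5.16 and 8.6.16) per assay. The labels do not state whether the 3 samples of a group were cultured separately. The p-values therefore rest on the spread among these samples, and that spread may be technical.

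NRF2, encoded by Nfe2l2, is a transcription factor that the adaptor KEAP1 holds at a low level through ubiquitination. Electrophiles and oxidants modify KEAP1, NRF2 then accumulates, pairs with small MAF proteins and binds antioxidant response elements at genes of glutathione synthesis, thioredoxin recycling, quinone reduction and heme breakdown, while BACH1 represses several of the same genes. Glutathione and metallothioneins are rich in thiols and can bind platinum, and metallothionein genes are driven by the zinc-sensing factor MTF1 through metal response elements.

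The promoters shown next are those of the metallothionein pair, of Gclm, whose change in mRNA sequencing differed in direction from that of its partner Gclc, and of Slc7a11, a known target of the stress factor ATF4. They are the 250 bases before the RefSeq start on assembly GRCm38.p6, 5′ to 3′ on the gene's strand, with matches in capitals. The motifs were searched on both strands: TGACNNNGC, the core of the antioxidant response element, TGCACNC or TGCGCNC, the core of the metal response element, and TGATGNAA, a core of ATF4 sites. Of 32851 such windows over all genes of the RefSeq table, 10.16% held the first, 21.41% the second and 3.45% the third.

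Mt2: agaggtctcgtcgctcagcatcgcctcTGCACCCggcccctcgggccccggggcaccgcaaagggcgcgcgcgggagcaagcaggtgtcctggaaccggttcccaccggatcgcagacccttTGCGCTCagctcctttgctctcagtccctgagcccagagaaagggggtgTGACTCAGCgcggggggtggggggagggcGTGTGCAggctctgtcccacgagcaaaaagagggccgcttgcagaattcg
Mt1: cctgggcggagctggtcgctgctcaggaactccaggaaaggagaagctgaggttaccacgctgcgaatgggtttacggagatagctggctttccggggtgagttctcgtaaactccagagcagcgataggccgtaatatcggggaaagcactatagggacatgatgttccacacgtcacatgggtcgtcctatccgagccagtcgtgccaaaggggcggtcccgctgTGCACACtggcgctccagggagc
Gclm: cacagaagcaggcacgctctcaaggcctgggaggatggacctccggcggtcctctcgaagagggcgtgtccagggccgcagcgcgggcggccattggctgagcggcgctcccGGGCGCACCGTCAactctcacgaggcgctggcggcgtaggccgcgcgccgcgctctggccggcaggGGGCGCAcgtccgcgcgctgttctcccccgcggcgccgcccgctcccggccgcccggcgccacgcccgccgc
Slc7a11: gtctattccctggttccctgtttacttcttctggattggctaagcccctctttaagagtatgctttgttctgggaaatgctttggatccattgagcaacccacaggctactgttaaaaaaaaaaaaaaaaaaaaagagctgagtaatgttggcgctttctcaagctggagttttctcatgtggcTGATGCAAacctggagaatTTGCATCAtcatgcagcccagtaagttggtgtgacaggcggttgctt

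The Mt2 window (chr8:94172368-94172617, plus strand) held 3 metal response cores, which 1.26% of all windows matched or exceeded, and 1 antioxidant response core. The Mt1 window (chr8:94178839-94179088, plus strand) held 1 metal response core. In the Gclm window (chr3:122245307-122245556, plus strand) 1 antioxidant response core overlapped 1 of its 2 metal response cores. The Slc7a11 window (chr3:50443614-50443863, minus strand) held 2 ATF4 cores and neither of the other motifs. Of the 7 members with a window, 3 held an antioxidant response core (Mt2, Gclm and Txnrd1, the last in 1 of its 3 start sites), and Nqo1 held none of the 3 motifs. A match is a description of letters, and a window without one says nothing about the factor. Cores beyond these 250 bases, also those after the listed start, were not counted, so a window's count need not be that of the promoter. Gclc, Gsr and Hmox1 had no entry in the RefSeq promoter table.

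Expression-table counts ran from 20365963 to 31604098 per library in mRNA sequencing and from 43404675 to 94373096 in RNAome sequencing. RefSeq entries took 59.68% to 61.07% of the counts in mRNA sequencing. In RNAome sequencing their share was 20.38% to 21.58% with cisplatin. Among the controls it was 11.54% in 8.4.16, which stood apart, 20.63% in 8.5.16 and 16.35% in 8.6.16. Of 12 ES cell markers 8 fell and 0 rose by edgeR in mRNA sequencing, where 19.3% of all genes tested fell and 18.5% rose. Their summed levels were 5478 to 5677 CPM (counts scaled to the total of the genes tested, adjusted by edgeR's TMM factors) in the cisplatin and 6482 to 6752 CPM in the control libraries. The 4 with the smallest adjusted p were Esrrb (-0.61 ± 0.05 on the log2 scale), Lin28a (-0.51 ± 0.05), Zfp42 (-0.70 ± 0.07) and Klf4 (-0.49 ± 0.06), all genes of the pluripotent state. Pou5f1, another of the 12, did not pass the test, with means of 1212 CPM in cisplatin and 1211 CPM in control cells (adjusted p = 0.99). In all, 3 of the 12 had a change above 0. In RNAome sequencing 0 of the 12 passed, with a median log2 change of -0.31. Of 22 feeder fibroblast markers 18 were listed, summing to 1094 to 1346 CPM in the cisplatin and 1401 to 1546 CPM in the control libraries, most of it Fn1 and Vim, which ES cells can also express. Of these 18 genes Mmp2 (0.57 ± 0.13) and Timp3 (0.46 ± 0.11) rose, and Fn1 (-0.42 ± 0.05) and Vim (-0.21 ± 0.05) fell. These calls can be read against the same 18.5% of all genes that rose and 19.3% that fell. The defining collagen genes were above 0. Col1a1 stood at 23.3 and Col3a1 at 1.48 CPM in cisplatin cells, and at 21.4 and 1.77 CPM in control cells. Lum, Dcn, Twist2 and Prrx1 were not listed. The part of either marker list in the results given here was not tested.

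In mRNA sequencing cisplatin raised 4 of the 10 genes and lowered 1. The 4 that rose were Hmox1, Srxn1, Nqo1 and Gclc, at 1.16 to 1.56 times their control level, and the 1 that fell was Gclm, at 0.870 times. Neither metallothionein, neither reductase gene (Gsr, Txnrd1) nor Slc7a11 passed the test, which was edgeR's quasi-likelihood test with Benjamini-Hochberg adjustment over all 13924 genes tested. Over all these genes 18.5% rose and 19.3% fell, 37.8% in all, so that 5 of 10 called is a share not far from that of all genes. Groups did not overlap for 4 genes that were higher and 2 that were lower (Gclm and Slc7a11), against 25.1% and 23.9% of all genes. The median log2 change was 0.14 over the 10 genes and 0.02 over all genes tested. Of all genes 2582 rose and 2687 fell. With scaling by library totals in place of edgeR's TMM factors, an alternative added after seeing the data, 3869 rose and 1690 fell, and the median change of all genes was 0.11. In these bulk samples, fewer cells of a kind and less RNA per cell cannot be told apart.

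**Figure D1:**
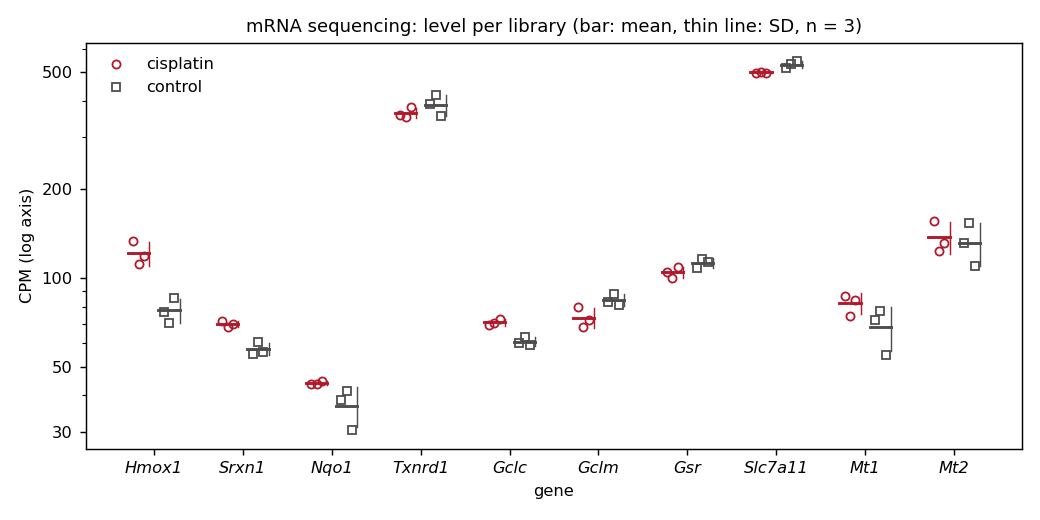
Level of the 10 genes in each mRNA sequencing library, in CPM on a log axis, with cisplatin libraries as circles left of control libraries as squares, the mean as a bar and the SD as a thin line (n = 3 each). Hmox1 has the widest gap between groups, with means of 121.2 and 77.6 CPM. Control 8.6.16, drawn last, is the lowest control for Mt1, Mt2, Nqo1, Txnrd1, Gclc and Gclm.

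Hmox1 encodes heme oxygenase 1, which breaks heme down to biliverdin, iron and carbon monoxide (NM_010442; chromosome 8, 77617490 to 77624495, plus strand, on mm9, the build of all coordinates of the members' gene models). Its level was 133.2, 111.6 and 118.9 CPM in cisplatin libraries 8.3.3, 8.4.3 and 8.5.3. The controls 8.4.16, 8.5.16 and 8.6.16 had 76.8, 70.5 and 85.5 CPM. The groups did not overlap, and the lowest cisplatin library lay well above the highest control library. The log2 change was 0.64 ± 0.08 (SE, adjusted p = 1.9e-05), the largest of the 10, and it was called under all 13 alternative settings, with values from 0.56 to 0.74.

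Srxn1 encodes sulfiredoxin, which restores overoxidised peroxiredoxins (NM_029688; chromosome 2, 151931252 to 151937112, plus strand). It stood at 71.2, 68.2 and 70.0 CPM with cisplatin and at 55.4, 60.5 and 56.2 CPM in controls, again with no overlap and with little spread inside either group. Its log2 change was 0.28 ± 0.06 (SE, adjusted p = 0.00263), called under all 13 alternatives.

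Nqo1 encodes a quinone reductase that is widely used as a readout of NRF2 activity (NM_008706; chromosome 8, 109912125 to 109927106, minus strand). It stood at 43.6, 43.6 and 44.9 CPM in the cisplatin libraries, and at 38.6, 41.4 and 30.4 CPM in the control libraries. The cisplatin libraries were nearly alike, and control 8.6.16 was far below the other controls. The log2 change of 0.26 ± 0.10 (SE, adjusted p = 0.0488) was 0.12 without that control (adjusted p = 0.194). The call was also lost without cisplatin 8.3.3, 8.4.3 or 8.5.3 or control 8.4.16, with adjusted p of 0.0769, 0.104, 0.122 and 0.0729, with DESeq2 (0.0758), with no filter on low counts (0.0548) and with the RefSeq entries of a gene summed (0.0672), leaving 5 of 13 alternatives in which it was called.

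Txnrd1 encodes the cytosolic thioredoxin reductase (NM_001042513; chromosome 10, 82296696 to 82360469, plus strand). Its level was 358.4, 353.0 and 379.7 CPM with cisplatin and 388.5, 417.2 and 354.8 CPM in controls, with overlapping groups. The log2 difference was -0.09 ± 0.06 (SE, adjusted p = 0.239). Without control 8.6.16, the lowest of its group, it was -0.16 and passed the test (adjusted p = 0.0191).

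Gclc and Gclm encode the catalytic and modifier subunits of glutamate-cysteine ligase, the rate-limiting enzyme of glutathione synthesis, and here they went opposite ways. Gclc (NM_010295; chromosome 9, 77602342 to 77642292, plus strand) stood at 69.3, 70.1 and 72.7 CPM with cisplatin and at 60.2, 63.3 and 59.1 CPM in controls. Its groups did not overlap, and its log2 change was 0.21 ± 0.06 (SE, adjusted p = 0.0119). It was called under 12 of 13 alternatives and missed the threshold without cisplatin 8.5.3 (adjusted p = 0.0554).

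Gclm (NM_008129; chromosome 3, 121948475 to 121972902, plus strand) stood at 79.6, 68.3 and 71.8 CPM with cisplatin, and at 82.9, 88.4 and 81.0 CPM in controls. Its groups did not overlap either, though cisplatin 8.3.3 came within a narrow gap of the lowest control. The log2 change was -0.20 ± 0.07 (SE, adjusted p = 0.0305). It lost its call without cisplatin 8.4.3 or 8.5.3 or control 8.4.16 or 8.5.16 (adjusted p = 0.143, 0.0886, 0.0542 and 0.126). The call was also lost with all features tested together and with scaling by library totals, where the change was -0.11 (adjusted p = 0.237). That left 7 of 13 alternatives in which Gclm was called.

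Gsr encodes glutathione reductase, which returns oxidised glutathione to its reduced form (NM_010344; chromosome 8, 34762995 to 34808635, plus strand). It stood at 104.6, 99.8 and 109.3 CPM with cisplatin and at 107.7, 115.8 and 113.4 CPM in controls. The groups overlapped at 1 library each, and the log2 difference was -0.11 ± 0.06 (SE, adjusted p = 0.163).

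Slc7a11 encodes the light chain of the cystine-glutamate exchanger, which imports the cystine from which glutathione is made (NM_011990; chromosome 3, 50168858 to 50247535, minus strand). It stood at 497.3, 500.3 and 497.5 CPM with cisplatin and at 514.0, 530.7 and 543.5 CPM in controls. The groups did not overlap, yet the log2 difference of -0.09 ± 0.04 did not pass the test (SE, adjusted p = 0.115). Most of these counts are specific to the authors' expression table. Their abundance table gave the same entry 847, 908 and 686 counts in the cisplatin libraries, where the expression table gave 6181, 6826 and 5035. For the control libraries it gave 679, 1058 and 884 counts, against 4657, 7531 and 6507. The expression count was thus 6.86 to 7.52 times the abundance count, while for each of the other 9 genes the quotient was at most 1.03 in either assay, and over all genes 1.52% reached 5 in mRNA sequencing. The sources used do not say why the tables differ. From the abundance table the log2 difference was -0.15 (adjusted p = 0.0561).

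Mt1 and Mt2 encode the widely expressed metallothioneins, small cysteine-rich proteins that bind zinc, copper and other metals, and they lie 5521 bases apart on chromosome 8. Mt1 (NM_013602; 96702989 to 96704225, plus strand) stood at 87.1, 74.4 and 84.4 CPM with cisplatin and at 72.1, 77.5 and 55.0 CPM in controls. Mt2 (NM_008630; 96696518 to 96697467, plus strand) stood at 156.4, 123.5 and 131.9 CPM with cisplatin and at 131.5, 154.1 and 109.8 CPM in controls. Both genes overlapped between groups, both were lowest in control 8.6.16 among controls and in 8.4.3 among cisplatin libraries, and the spread inside each group was wide.

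The log2 difference was 0.26 ± 0.10 for Mt1 (SE, adjusted p = 0.0556) and 0.06 ± 0.10 for Mt2 (SE, adjusted p = 0.709; 95% interval -0.17 to 0.28). The difference of Mt2 turned with the library left out, being -0.06 without cisplatin 8.3.3 and -0.07 without control 8.6.16. Mt1 passed the test under 4 of 13 alternatives, which were all features tested together (19.8% of them called), library totals, and leaving out cisplatin 8.4.3 or control 8.5.16 (adjusted p = 0.0425, 0.0118, 0.04 and 0.0168). Without control 8.6.16 its difference was 0.12 (adjusted p = 0.215).

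Per kilobase of transcript, using the length of 1 GENCODE transcript per gene, the metallothioneins led the 10 genes in mRNA sequencing. Mt2 stood at 246.9 ± 30.8 CPM per kilobase with cisplatin and at 237.0 ± 39.9 in controls (SD, n = 3 each). Mt1 followed at 151.8 ± 12.4 with cisplatin and 126.3 ± 21.8 in controls, and in controls its libraries overlapped those of Txnrd1, at 113.2 ± 9.15. Hmox1 stood at 75.5 ± 6.84 CPM per kilobase with cisplatin, above Slc7a11 at 54.0 ± 0.19, and at 48.3 ± 4.69 in controls, below Slc7a11 at 57.4 ± 1.6. From the abundance counts Slc7a11 would come last in both groups, at 7.32 ± 0.09 with cisplatin and 8.07 ± 0.06 in controls. At the lower end the control libraries of Gclc and Gclm overlapped, at 17.8 ± 0.64 and 17.4 ± 0.79 CPM per kilobase. With cisplatin their libraries no longer overlapped, at 20.6 ± 0.53 for Gclc and 15.1 ± 1.19 for Gclm.

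In RNAome sequencing, which asked the same question of total RNA, 0 of the 10 genes passed edgeR's test, 0 had an unadjusted p under 0.05, and 0 passed with DESeq2. Over all 9861 genes tested 0.984% rose and 1.06% fell, 2.05% in all. The 10 genes were read thinly here, with 11 to 595 counts per library and 1.22 to 30.4 CPM. The median log2 change was 0.06 over the 10 genes and -0.01 over all genes tested.

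**Figure D2:**
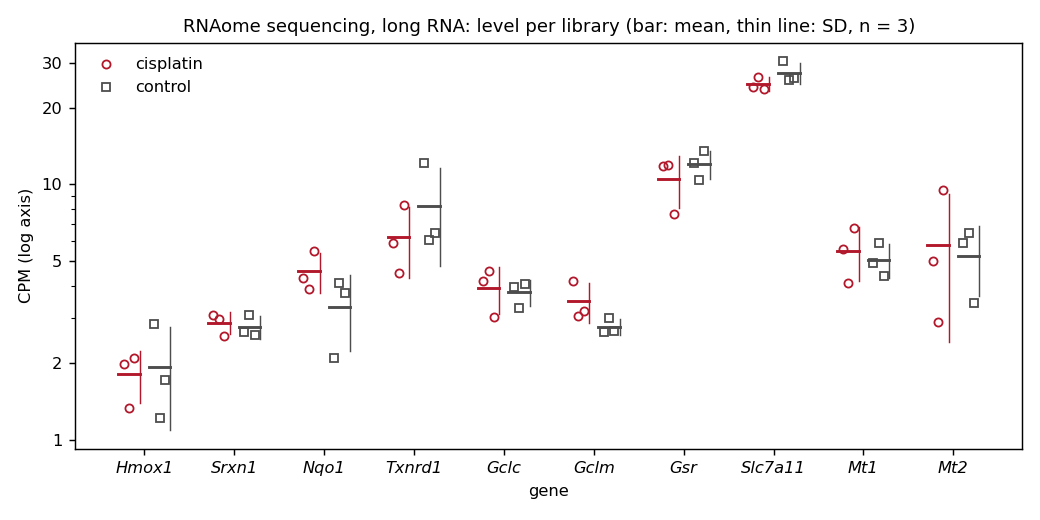
Level of the 10 genes in each RNAome long RNA library, in CPM on a log axis, with cisplatin libraries as circles left of control libraries as squares, the mean as a bar and the SD as a thin line (n = 3 each). Gclm is the gene whose groups do not overlap. Control 8.4.16, drawn first among the controls, is the highest for Hmox1, Txnrd1 and Slc7a11 and the lowest for Nqo1 and Gclm.

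Hmox1 stood at 1.99, 1.33 and 2.10 CPM with cisplatin and at 2.85, 1.22 and 1.71 CPM in controls, resting on 13 to 34 counts per library. The groups overlapped and the log2 difference was -0.02 ± 0.34 (SE, adjusted p = 0.989), with a 95% interval of -0.73 to 0.69 that holds the change of 0.64 seen in mRNA sequencing. Its place among all tested genes was the percentile 82.7 by mean level in mRNA sequencing and 27.8 in RNAome sequencing.

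Nqo1 stood at 4.32, 3.91 and 5.49 CPM with cisplatin, against 2.09, 4.12 and 3.75 CPM in controls. The groups overlapped, and the log2 difference of 0.37 ± 0.24 had an adjusted p of 0.565. For Srxn1 the values were 3.10, 2.98 and 2.56 CPM with cisplatin and 2.66, 3.09 and 2.57 CPM in controls, a log2 difference of 0.05 ± 0.24 with groups that overlapped. Txnrd1 ranged from 4.49 to 8.32 CPM with cisplatin and from 6.09 to 12.1 CPM in controls, the upper end being control 8.4.16.

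Gclm stood at 4.21, 3.07 and 3.20 CPM with cisplatin and at 2.66, 2.998 and 2.68 CPM in controls. It was the 1 gene of the 10 whose groups did not overlap, higher with cisplatin as were 9.94% of all genes tested (9.22% were lower with no overlap), and its log2 difference of 0.32 ± 0.24 did not pass the test (SE, adjusted p = 0.627). Gclc stood at 4.21, 4.58 and 3.02 CPM with cisplatin, and at 3.99, 3.28 and 4.07 CPM in controls, with a log2 difference of 0.10 ± 0.23. Gsr and Slc7a11 differed by -0.18 ± 0.19 and -0.14 ± 0.15 on the log2 scale, with overlapping groups. From the abundance table the Slc7a11 difference was -0.45 (adjusted p = 0.453). That value rests on 17 to 72 abundance counts per library, and the expression count was 5.81 to 12.9 times the abundance count.

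Mt1 stood at 5.61, 4.13 and 6.77 CPM with cisplatin and at 4.94, 5.90 and 4.39 CPM in controls, and Mt2 at 5.02, 2.89 and 9.51 CPM with cisplatin and at 5.88, 6.46 and 3.43 CPM in controls. In the cisplatin group Mt2 had the widest spread of the 10 genes, its SD being 58.2% of the mean, and in the control group its SD was 30.6% of the mean. Mt1 and Mt2 differed by 0.07 ± 0.22 and 0.07 ± 0.34 on the log2 scale, and the direction turned with the library left out. Without cisplatin 8.5.3 the differences were -0.08 for Mt1 and -0.42 for Mt2, and without cisplatin 8.4.3 they were 0.27 and 0.45.

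**Figure D3:**
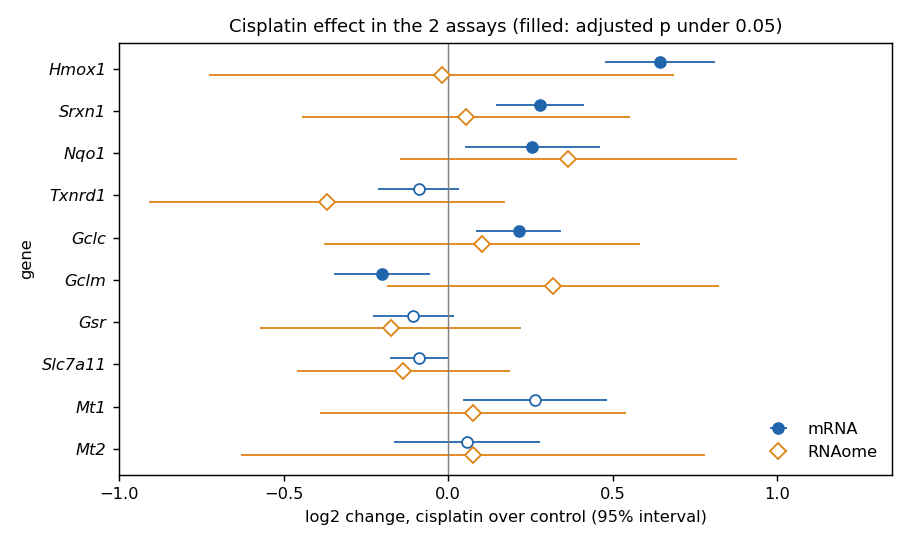
Log2 change with cisplatin over control for each of the 10 genes, in mRNA sequencing (circles) and RNAome sequencing (diamonds), with 95% intervals from edgeR and filled symbols where the adjusted p was under 0.05. Intervals are wider in RNAome sequencing for every gene, and Gclm lies at -0.20 in mRNA sequencing and at 0.32 in RNAome sequencing.

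The difference of the cisplatin effect between the assays was tested as an interaction over 12 libraries. Of 12920 genes tested 0 passed edgeR's test (0% of all), 756 had an unadjusted p under 0.05, and among the 10 genes Gclm alone was under it. For Gclm the RNAome effect minus the mRNA effect was 0.52 ± 0.22 on the log2 scale (SE, unadjusted p = 0.0293, adjusted p = 0.836). For Hmox1 it was -0.65 ± 0.34 (unadjusted p = 0.0686, adjusted p = 0.85; 95% interval -1.36 to 0.05). With the RNA sample shared by both assays as a block, 11 of the 12920 genes passed (lowest adjusted p = 0.0317) and 683 had an unadjusted p under 0.05. None of the 10 passed with the block, where Gclm (0.53, unadjusted p = 0.0307, adjusted p = 0.932) and Hmox1 (-0.65, unadjusted p = 0.0425, adjusted p = 0.934) were under 0.05 before adjustment. For the other 8 genes the difference without the block lay between -0.27 and 0.07. An effect called in 1 assay and not in the other is therefore not shown to differ between them for any of the 10 genes.

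Of 14 tested genes that control NRF2, 2 rose and 4 fell in mRNA sequencing, with a median of -0.06, and the other 8, NRF2's own gene among them, did not pass the test. For this list and those that follow, the share called can be read against the 18.5% of all genes that rose and the 19.3% that fell, and no list was tested against the other genes or against another list. Nfe2l2 stood at 95.02, 91.8 and 98.2 CPM with cisplatin and at 99.8, 98.4 and 88.4 CPM in controls, a log2 difference of -0.01 ± 0.06 (SE, adjusted p = 0.932). The groups overlapped. Keap1 (0.15 ± 0.09, adjusted p = 0.178) and Bach1 (-0.08 ± 0.08, adjusted p = 0.467) did not pass either. The 2 that rose were the small MAF genes Mafk (0.61 ± 0.12 on the log2 scale) and Maff (0.53 ± 0.16), whose products pair with NRF2. Maff lost its call without control 8.6.16 (adjusted p = 0.0563). Those that fell were Cul3 (-0.53 ± 0.05), the scaffold of the ubiquitin ligase that KEAP1 serves, Gsk3b (-0.46 ± 0.06) and Btrc (-0.32 ± 0.08), a kinase and a ligase adaptor of a second route of NRF2 breakdown, and Nfe2l1 (-0.29 ± 0.05), which encodes the related factor NRF1. With scaling by library totals 4 rose and 4 fell.

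Of 19 tested further genes known as NRF2 targets 6 rose and 2 fell, a share called near the 37.8% of all genes, with a median log2 change of 0.08. Ephx1, an epoxide hydrolase gene, rose most, with means of 29.5 CPM in cisplatin cells and 7.07 CPM in control cells and a log2 change of 2.04 ± 0.14 (SE, adjusted p = 1.51e-07). Cbr3, a carbonyl reductase gene, rose by 0.72 ± 0.10, the heme carrier gene Slc48a1 by 0.48 ± 0.09, and Idh1, whose enzyme makes NADPH, by 0.34 ± 0.06. The drug efflux pump genes Abcc4 (-0.86 ± 0.06) and Abcc1 (-0.36 ± 0.06) fell. These 6 genes kept their calls whichever library was left out. With scaling by library totals 11 rose and 2 fell.

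Of 35 tested glutathione genes outside the 10, 10 rose and 2 fell, a share called near that of all genes, with a median of 0.17. Gpx3, a glutathione peroxidase gene, rose by 1.39 ± 0.11 on the log2 scale, with means of 23.3 and 8.88 CPM in cisplatin and control cells, and Cbs, of cysteine synthesis, rose by 0.80 ± 0.09. The 5-oxoprolinase gene Oplah (0.52 ± 0.13) and the glutathione transferase gene Gsto1 (0.42 ± 0.09) rose too. Chac1, whose product degrades glutathione, fell by 1.75 ± 0.15 on the log2 scale (adjusted p = 5.83e-07), and Slc3a2, the heavy chain that pairs with the SLC7A11 protein, fell by 0.30 ± 0.05. The count that rose was 5 without cisplatin 8.4.3, 6 without cisplatin 8.5.3 and 17 with scaling by library totals.

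Of 18 thioredoxin and peroxide genes 5 rose and 1 fell, which is also near the share over all genes, with a median of 0.06. Those named by the rule are Msrb1, a methionine sulfoxide reductase gene (0.57 ± 0.10), the sestrin genes Sesn2 (0.55 ± 0.08) and Sesn1 (0.34 ± 0.11), and Txnip (0.55 ± 0.13), whose product binds and inhibits thioredoxin, so that not all of them act against oxidants. Prdx4, an endoplasmic reticulum peroxiredoxin gene, fell (-0.21 ± 0.07, adjusted p = 0.0369) but lost that call without cisplatin 8.3.3, 8.4.3 or 8.5.3 or control 8.4.16 or 8.6.16 (adjusted p = 0.0592, 0.0972, 0.0898, 0.0671 and 0.0992). Sesn1 lost its call without cisplatin 8.5.3 or control 8.5.16 (adjusted p = 0.107 and 0.104), and 3 genes rose without either of these libraries. With scaling by library totals 9 rose and 0 fell by edgeR.

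Of 18 heme and iron genes 7 rose and 2 fell, with a median of 0.17. The enzymes of heme synthesis Uros (0.74 ± 0.15), Alad (0.64 ± 0.08), Fech (0.38 ± 0.08) and Cpox (0.33 ± 0.08) rose, beside the rise of Hmox1, which degrades heme. The transferrin receptor gene Tfrc (-0.21 ± 0.05) and the iron sensor gene Ireb2 (-0.21 ± 0.05) fell. With scaling by library totals 12 rose and 0 fell by edgeR, Tfrc and Ireb2 then having adjusted p of 0.085 and 0.0632.

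Of 24 metal handling genes 2 rose and 1 fell, with a median of 0.04. Mtf1, the regulator of metallothionein genes, stood at 29.4 CPM in cisplatin and 31.4 CPM in control cells and did not pass the test (-0.09 ± 0.08, adjusted p = 0.385). The copper chaperone gene Atox1 rose by 0.42 ± 0.06 and the copper carrier gene Slc31a2 by 0.65 ± 0.12, while the zinc importer gene Slc39a10 fell by 0.28 ± 0.05 on the log2 scale. The count that rose was 4 without control 8.5.16 and 6 with scaling by library totals.

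**Figure D4:**
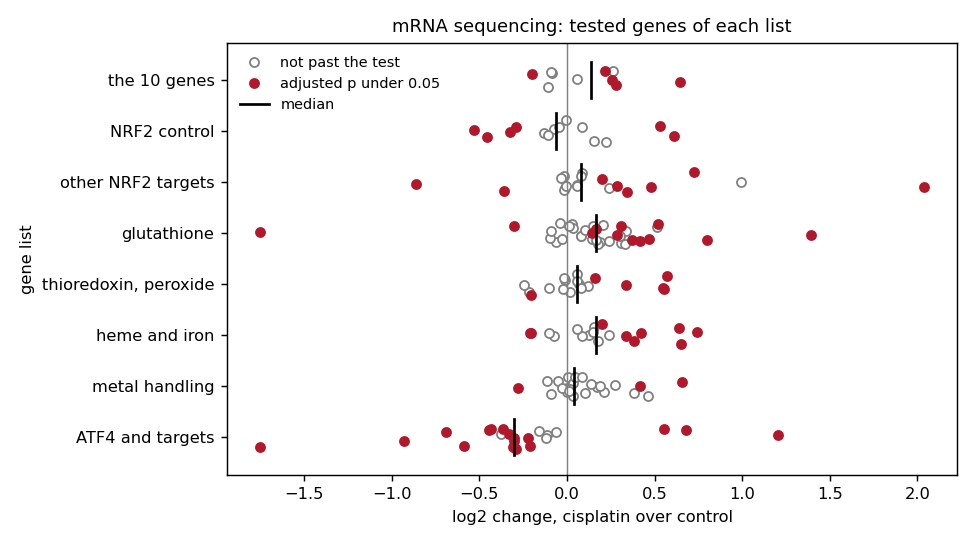
Log2 change with cisplatin over control in mRNA sequencing for the tested genes of each list, filled where edgeR's adjusted p was under 0.05, with the list's median as a black bar. The list of ATF4 and its targets has its median at -0.30, and the other lists drawn have medians between -0.06 and 0.17.

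ATF4 is a stress factor that also drives Slc7a11 and Chac1 in other cells. Among its 22 tested members, 14 fell and 3 rose (median log2 change -0.30). The ES cell markers, 8 of 12 of which fell, had a median of -0.29, and their part in this was not tested. Atf4 itself stood at 94.2, 82.8 and 79.0 CPM with cisplatin and at 152.7, 164.6 and 171.6 CPM in controls, with no overlap, and fell by 0.93 ± 0.07 on the log2 scale (adjusted p = 2.62e-07). The cationic amino acid carrier gene Slc7a1 fell by 0.59 ± 0.06, and Aars, which encodes an aminoacyl-tRNA synthetase, by 0.44 ± 0.05. The 3 that rose were Atf3 (1.20 ± 0.27), Cebpb (0.68 ± 0.22) and Sesn2, genes that respond to several kinds of stress. Chac1, Slc3a2 and Cth are counted in this list as well as among the glutathione genes, and Sesn2 also among the thioredoxin and peroxide genes. Txn1 and Prdx1 are both in the list of further NRF2 targets and in that of thioredoxin and peroxide. Fth1, Ftl1 and Blvrb are both in the list of further NRF2 targets and in that of heme and iron, and of these Fth1 was called, higher, in both. Cebpb lost its call without cisplatin 8.3.3 or control 8.4.16 (adjusted p = 0.0676 and 0.0949). With scaling by library totals 9 fell and 3 rose. Slc7a11, which was kept out of this list as 1 of the 10 genes, differed by -0.09 and did not pass the test, as given above.

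In RNAome sequencing 2 genes of these lists passed the test, 1 of 18 tested in the ATF4 list and 1 of 19 metal handling genes. In the NRF2, glutathione, thioredoxin and heme lists, of 12 to 24 tested genes each, 0 passed. Over all genes tested 2.05% passed, so that 2 called over these lists is near that share. Atf4 stood at 11.2, 10.9 and 9.97 CPM with cisplatin and at 17.5, 18.6 and 19.9 CPM in controls, with no overlap and a log2 change of -0.80 ± 0.16 (SE, adjusted p = 0.00691), and lost its call without cisplatin 8.4.3 (adjusted p = 0.0748). Slc31a1, the copper importer gene whose product can also carry platinum, stood at 8.997, 8.40 and 9.51 CPM with cisplatin and at 5.32, 5.81 and 3.64 CPM in controls. It rose by 0.86 ± 0.20 on the log2 scale (adjusted p = 0.0233), and lost its call without cisplatin 8.3.3, 8.4.3 or 8.5.3 or control 8.6.16 (adjusted p = 0.0933, 0.0751, 0.0729 and 0.13). In mRNA sequencing Slc31a1 averaged 68.7 CPM with cisplatin and 69.8 CPM in controls, a log2 difference of -0.03 ± 0.06 (adjusted p = 0.781). Its effect in RNAome minus mRNA sequencing was 0.89 ± 0.18 (unadjusted p = 4.04e-05, adjusted p = 0.267, and 0.0656 with the block). Neither Atf4 nor Slc31a1 passed with scaling by library totals, and Slc31a1 did not pass with DESeq2. Nfe2l2 (0.29 ± 0.18), Keap1 (0.46 ± 0.25), Bach1 (-0.01 ± 0.24) and Mtf1 (-0.12 ± 0.26) did not pass.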

How the data were processed

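Read counts per RefSeq transcript and genomic region were deposited by the authors for mRNA sequencing and for the long RNA of RNAome sequencing, unnormalized, as an expression table and an abundance table per assay. Bowtie, TopHat, edgeR and genome build mm9 are named, without versions, roles or counting rule, per the submitters' processing notes. Small RNA libraries were not used here. The members and lists were chosen with earlier results of these data known.

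Of 18943 RefSeq entries for mRNA sequencing, 18457 matched a symbol through a RefSeq table (GRCm38.p6, used for names and promoters), and of 17787 for RNAome sequencing, 17337 did. For each gene 1 entry was kept, preferably one in both assays, with the highest mean CPM. Gene models came from GENCODE vM1 on NCBIM37, the assembly of mm9, with 1 transcript per gene for lengths.

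The expression counts entered the quasi-likelihood test of edgeR 4.0.16 under R 4.3.3, with TMM scaling and filterByExpr. It was two-sided, and calls needed an adjusted p (Benjamini-Hochberg) under 0.05, with 6 libraries per assay and 12 for the difference between assays. On simulated data the step called 67% of genes given a log2 change of 0.5 in mRNA sequencing and 6.2% in RNAome sequencing. For a change of 1 it called 88.9% and 57.3%, and for a change of 0 it called 0.13% and 0.01%. CPM uses TMM-scaled totals of the genes tested. The SE is the log2 change divided by the square root of F. Intervals use edgeR's degrees of freedom. Alternatives were DESeq2 1.42.0, no filter, the abundance table, other ways to choose or sum transcripts, all features, each library left out, and, added after seeing the data, library totals without TMM and counts of the other lists under each of these. The named genes were the 10 members, in each other list up to 4 higher and 4 lower called genes with the smallest adjusted p in mRNA sequencing, any called in RNAome sequencing, and Nfe2l2, Keap1, Bach1, Mtf1 and Atf4. Outside this rule, Pou5f1, the collagen and unlisted fibroblast markers and the genes shared between lists were named too.

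The codes pair the libraries across assays, since both assays read the same RNA sample. Between same-code libraries the deviations from group means had r of 0.08 to 0.28 over 9718 genes, on the scale of log2 CPM with a pseudocount of 1. Pairs of different codes within a group had r of -0.18 to 0.055. The lowest same-code value, 0.078 for control 8.4.16, was little above the 0.055 of its mRNA library with RNAome control 8.5.16.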

Additional observations from a re-analysis of the deposited data

Results flagged for a closer look

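Besides transcripts, the tables list genomic regions, which the comparisons of genes did not use. Within introns of the 10 genes, allowing 2 bases at a border, 24 of 31 regions were tested in mRNA sequencing in the fit over all features (19.8% of 46404 features called), and 1 was higher and 1 lower with cisplatin. The one that was higher lies in an intron of Gclc (chromosome 9, 77629175 to 77633140 on mm9), a signal outside the transcripts above its control level. It held 52, 39 and 20 counts in cisplatin libraries 8.3.3, 8.4.3 and 8.5.3, while controls 8.4.16, 8.5.16 and 8.6.16 held 18, 25 and 17. Scaled, cisplatin 8.5.3 stood at 1.98 CPM and control 8.4.16 at 1.99 CPM, so the groups overlapped. The log2 change was 0.84 ± 0.27 (SE, edgeR adjusted p = 0.032). In RNAome sequencing the same region held 5, 3 and 2 counts with cisplatin and 3, 3 and 2 in controls, which scaled to 0.292, 0.133 and 0.183 CPM with cisplatin and to 0.570, 0.281 and 0.214 CPM in controls. The other intron regions of Gclc tested in mRNA sequencing had log2 differences from -0.32 to 0.30, and none of them passed. No cause was tested.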

How the results depend on the processing

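Over 13 alternatives in mRNA sequencing, Hmox1 and Srxn1 were called in all, Gclc in 12, Gclm in 7, Nqo1 in 5, Mt1 in 4 and Txnrd1, lower, in 1, while Mt2, Gsr and Slc7a11 were called in none. Without TMM, the median log2 change of all genes was 0.11 in mRNA sequencing and -0.12 in RNAome sequencing, and in mRNA sequencing 0 members fell by edgeR and 1690 genes fell. With all features tested together 0 members fell. With 1 library left out, 2 (without cisplatin 8.5.3) to 5 (without control 8.5.16) members rose and 0 to 2 fell. Of all genes 1991 to 2536 rose and 2171 to 2830 fell. The causes were not tested.

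In RNAome sequencing 0 members were called under any alternative. The differences of Hmox1, Gclc, Srxn1, Mt1 and Mt2 lay on both sides of 0 over these alternatives. Of all genes 97 rose and 105 fell. With DESeq2 56 rose, with all features 65 fell, and without TMM 6 rose and 35 fell. With 1 library left out 40 to 93 rose and 34 to 128 fell.

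With the replicate block for the shared RNA sample, 11 genes over all differed between assays and 0 of the 10 did. With 1 RNA sample left out the number over all genes was 0 to 26, the highest without control 8.4.16. The block changed no call of the 10. The members had 11 to 595 counts per RNAome library, and the part of that depth in the missing calls was not tested.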

Other observations

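The intron region of Gsr that was lower lies at 34799925 to 34804270 on chromosome 8 (mm9). It stood at 55.2, 48.7 and 47.7 CPM with cisplatin and at 61.0, 63.6 and 70.4 CPM in controls, with no overlap (log2 change -0.35 ± 0.08, SE, edgeR adjusted p = 0.00266 over all features). In RNAome sequencing it held 199 counts over the cisplatin and 82 over the control libraries, with a log2 difference of 0.35 ± 0.29 (adjusted p = 0.711). In the abundance table the same region held 193, 216 and 156 counts with cisplatin and 164, 231 and 240 counts in controls, far fewer than the 686, 664 and 483 and the 553, 902 and 843 counts of the expression table. Scaled, the abundance counts gave 15.5, 15.8 and 15.4 CPM with cisplatin and 18.1, 16.3 and 20.1 CPM in controls, also with no overlap.

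The 2 intron regions listed for Nqo1 summed to 4.75, 3.15 and 3.26 CPM with cisplatin and to 2.21, 2.68 and 2.25 CPM in controls in mRNA sequencing, with no overlap, on 20 to 59 counts per library. The sum was chosen after its values were seen and was not tested. Of the 2 regions, the 1 tested (109916913 to 109926965 on chromosome 8) did not pass (log2 difference 0.68 ± 0.25, SE, edgeR adjusted p = 0.0651). The 2 regions listed in RNAome sequencing summed to 0.35, 0.36 and 0.64 CPM with cisplatin. In controls they summed to 0.57, 0.09 and 0.11 CPM, so the groups overlapped, on 1 to 8 counts per library. In mRNA sequencing the same sum for Gsr was lower with no overlap, and those for Mt1, Mt2, Gclc, Gclm, Hmox1, Txnrd1 and Srxn1 overlapped. Over all genes tested there, 25.1% were higher and 23.9% lower with no overlap.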
